A study of Mus musculus with 2 samples.

Results

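Filtered PE-low cells are cells of the early red cell fraction of a magnet-based isolation from the mouse fetal liver, after removal of cells with more than a few myeloid transcripts. They were the cells named PE-low in the deposited cell table that held under 5 unique molecular identifiers (UMIs, each marking 1 captured transcript) of Mpo and under 3 UMIs of Ly86, Csf1r and Ccr2 together. Of the 208 PE-low cells, 156 were under both limits, out of 3357 cells in the series. The cells were chosen by these UMI counts, so the levels of the 4 genes are given as a description only.

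The study profiled single cells of C57BL/6 fetal liver at E14.5 with a 10x 3' kit. The labels describe cells low in CD71 and CD24. A hashed library pooled PE-low and PE-high cells, taken here as the 2 magnet fractions, with cells sorted by fluorescence as FACS BFU-E and FACS CFU-E. A second library, with antibody tags for CD117 and CD71 (CITE-seq), held cells named CS BFUE and CS CFUE. The sources used here do not say what PE and CS stand for or how any pool was gated. The labels also describe growth with dexamethasone or methanol, but do not say whether the sequenced cells had been grown this way. All groups share the strain, the embryonic stage and the tissue. Each pool is 1 sample without a replicate, so no p-value was computed and every interval covers counting error only.

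Red cell production starts from the burst-forming unit-erythroid (BFU-E), which depends on the stem cell factor receptor Kit, and moves on to the colony-forming unit-erythroid (CFU-E), which depends on erythropoietin. Along this path the transcription factor Gata2 gives way to Gata1 and Klf1, and the transferrin receptor (CD71, gene Tfrc), CD24 (gene Cd24a) and the Rh blood group protein (gene Rhd) increase before the globins do. The fetal liver also makes granulocytes, monocytes, megakaryocytes and lymphocytes, whose precursors can share the surface of early red cell progenitors.

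The hashed cells were told apart by a short DNA barcode carried by an antibody. The 2 barcodes that the labels give for PE-low and PE-high are shown here with capitals at the 12 of 15 positions where they differ.
PE-low: CaGGtTGTTGTCAtT
PE-high: TaTTtCCACCCGGtC
No cell barcode was shared between the 2 libraries (0 barcodes).

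The 156 filtered PE-low cells held 5421148 UMIs, with a median of 35776.5 and a range of 10258 to 49848 per cell. Their median number of detected genes was 5642.5. Of the 52 cells left out, 26 were over the Mpo limit only, 8 over the limit of the 3 monocyte genes only and 18 over both. The same limits kept 275 of 294 PE-high cells, 156 of 233 FACS BFU-E cells, 87 of 122 CS BFUE cells, 192 of 195 CS CFUE cells and all 167 FACS CFU-E cells. The filtered cells were under limits rather than free of myeloid transcripts. Mpo, the neutrophil peroxidase, had at least 1 UMI in 17.3% of filtered PE-low cells (27 of 156, median depth 35776.5 UMIs), against 16% of filtered PE-high cells (44 of 275, median depth 39378 UMIs). Near the Mpo limit, 2 filtered cells held 3 or 4 Mpo UMIs and 5 cells left out held 5 to 9. These 2 filtered cells had 3667 CPM (UMIs per 1000000 UMIs) of Apoe and 147 CPM of Gata1, while the 5 cells left out had 12.0 CPM of Apoe and 0 UMIs of Gata1.

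Of the 6 genes given as markers of these cells, 5 were present in the filtered PE-low cells and 1 was not. Apoe, a lipid transport protein, stood at 880 CPM (95% exact Poisson interval 855 to 905) and was seen in 145 of 156 cells. Ccnd2, the G1 cyclin D2, stood at 190 CPM (179 to 202) and was seen in 154 cells. Car1, a carbonic anhydrase, stood at 181 CPM (169 to 192) and was seen in 112 cells. Kit stood at 87.6 CPM (79.9 to 95.9) and was seen in 140 cells. Apoe, Ccnd2, Car1 and Kit were thus found in most cells. Gata2 stood at 38.7 CPM (33.7 to 44.3) and was seen in 74 cells. Emb, the adhesion protein embigin, went against the label: it stood at 8.49 CPM in the filtered PE-low cells, against 556 CPM in the 52 PE-low cells left out. Only 10 of the 156 filtered cells held an Emb UMI, and 1 of them held 65.2% of the 46 UMIs. Cd34, a surface protein of early progenitors, followed Emb, with 4.61 CPM in the filtered cells and 361 CPM in the cells left out. The red cell genes ran the other way. Klf1 stood at 278 CPM in the filtered cells and 7.22 CPM in the cells left out, Gata1 at 104 and 1.80 CPM, and Car1 at 181 and 1.20 CPM. Of 3594 genes, 467 were called higher (13%) and 463 lower (12.9%) in the filtered cells than in the cells left out, at a ratio of 1.5 or more. Since the same cells were split by their myeloid transcripts, nothing is read from these counts. By RefSeq positions on GRCm38.p6, Apoe lies at chr7:19696244-19701310, Car1 at chr3:14766214-14808365, Gata2 at chr6:88193891-88207032, Kit at chr5:75574987-75656722, Ccnd2 at chr6:127125162-127152188 and Emb at chr13:117220573-117274415.

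**Figure D1:**
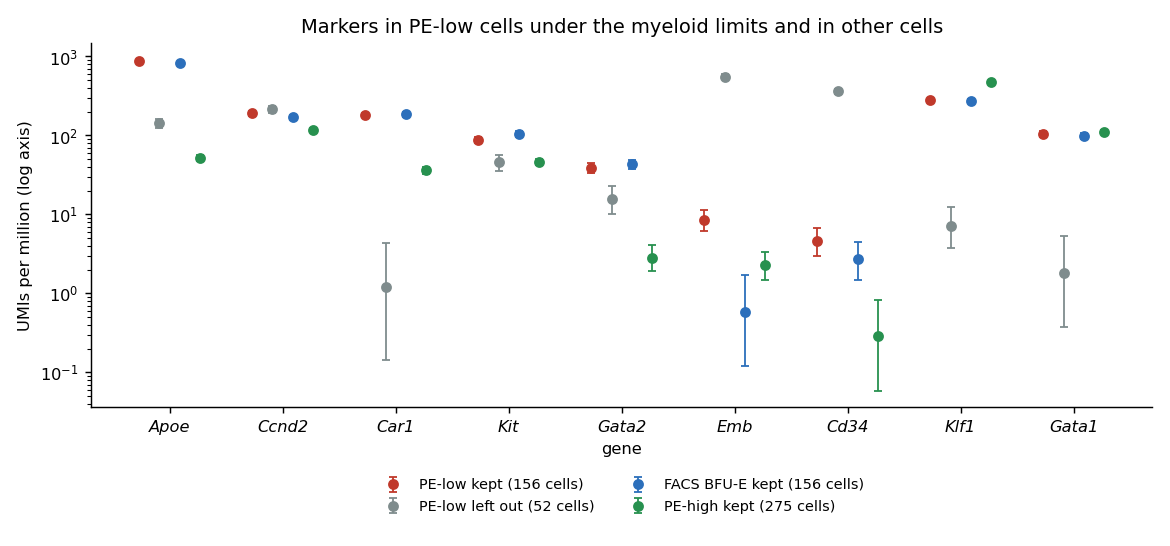
Levels (CPM, log axis) of the 6 marker genes and of Cd34, Klf1 and Gata1 over the summed cells of filtered PE-low, PE-low left out, filtered FACS BFU-E and filtered PE-high; bars are 95% exact Poisson intervals of the counts. Emb stands at 8.49 in filtered PE-low cells and 556 in the cells left out, while Car1 stands at 181 and 1.20.

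The 2 limits act on myeloid genes, and a few cells with no transcript of key red cell genes stayed among the 156. The sign used was the sum of Klf1, Gata1 and Epor (the erythropoietin receptor): 5 of 156 filtered PE-low cells (3.21%, 95% exact Clopper-Pearson interval 1.05 to 7.32) held 0 UMIs of all 3, against a median of 16 UMIs over the filtered PE-low cells. The same was seen in 2 of 275 filtered PE-high cells, 1 of 156 filtered FACS BFU-E cells and 10 of 87 filtered CS BFUE cells (11.5%), and in 38 of the 52 PE-low cells left out. The first of the 5 cells held 131 UMIs of the lymphoid list, among them Ebf1 at 29, Cd79b at 25, Igll1 at 22 and Pax5 at 13, genes of B cell precursors, and no other filtered PE-low cell held more than 9 UMIs of that list. The second held 95 UMIs of the megakaryocyte list, with the platelet factor Pf4 at 30. The third held 205 UMIs of the endothelium and stroma list, with Lyve1 at 75, Egfl7 at 40 and Stab2 at 19, genes of liver endothelium, and 21 UMIs of the macrophage gene C1qb. The fourth held 181 UMIs of the same list, with the collagens Col3a1 at 104 and Col1a1 at 77. The fifth held 30 UMIs of Emb, 20 of Tyrobp and 15 of Cd34. Pf4, Lyve1, Stab2, Col1a1, Col3a1, Igll1 and Pax5 had 0 UMIs in the 151 other filtered PE-low cells. The 5 cells were picked after their values were seen and are not named as types. Values without them stand beside named genes that lost a call or moved by over 1.5 times when they were left out.

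Against PE-high, the filtered PE-low cells held more of the early progenitor genes and far less globin and red cell membrane transcript. A gene was compared where it reached 50 CPM and was seen in 10% of cells on the same side, and it was called at a ratio of 1.5 or more. Of 3397 genes, 173 were called higher (5.09%) and 172 lower (5.06%) in filtered PE-low cells than in filtered PE-high cells, with a median log2 ratio of -0.01. A gene under 50 CPM on 1 side could enter only by being higher on the other, so list counts follow the filter in part. The gene lists were also chosen with earlier results of these data known, so their counts are a description only.

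Among the highest ratios, Vim, the intermediate filament vimentin, had 428 CPM in filtered PE-low cells and 17.2 CPM in filtered PE-high cells, a 24.9-fold ratio (21.4 to 29.1). Apoe had 880 and 51.9 CPM (16.9-fold, 15.5 to 18.5). Gmfg, an actin regulator, had 158 and 10.3 CPM (15.4-fold). These were the 3 highest ratios of all genes compared. Klk8, a kallikrein protease, had 57.7 and 4.65 CPM, and Ramp1, a receptor partner protein, 72.3 and 7.22 CPM. Ptpn18, a phosphatase, had 74.5 CPM in filtered PE-low cells and 7.79 CPM in filtered PE-high cells, Rasgrp2, an activator of Rap1, 67.1 and 7.88 CPM, Cmtm7 364 and 53.1 CPM, and Spns2, the sphingosine-1-phosphate exporter, 86.3 and 12.6 CPM. Coro1a, the actin-binding coronin, had 53.7 and 6.93 CPM, but 58.9% of its PE-high UMIs lay in 1 cell. Without the cells at 0 UMIs of Klf1, Gata1 and Epor it had 44.0 and 1.91 CPM, a 23.0-fold ratio, and missed the level filter.

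Of the 11 genes of the early erythroid progenitor list that were compared, 8 were called higher and 0 lower in filtered PE-low cells. Car1 had 181 CPM in filtered PE-low cells and 36.1 CPM in filtered PE-high cells (5.01-fold), Myb, a transcription factor of progenitor growth, 395 and 150 CPM (2.63-fold), and Kit 87.6 and 46.1 CPM (1.90-fold, 1.67 to 2.16). Gata2 was not compared because it stayed under 50 CPM on both sides; its levels were 38.7 CPM in filtered PE-low cells and 2.85 CPM in filtered PE-high cells. Among erythroid transcription factors, 5 of 17 were called higher, with Hhex at 57.2 and 11.3 CPM and Mef2c at 77.1 and 16.4 CPM, and 3 were called lower, Klf3, Klf1 and Zbtb7a. The early list thus leaned to PE-low, and the factor list held calls in both directions.

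Late red cell genes were lower in the filtered PE-low cells. All 4 globins compared were called lower: Hbb-bt had 16.6 CPM in filtered PE-low cells and 622 CPM in filtered PE-high cells (37.5-fold lower, 30.4 to 46.7), Hba-a1 9.04 and 317 CPM (35.0-fold lower), Hbb-bs 19 and 619 CPM and Hba-a2 2.77 and 98.8 CPM. The alpha pair and the beta pair are near-identical copies, so how reads split within a pair is uncertain. The 8 globins of the list summed to 47.6 CPM in filtered PE-low and 1659 CPM in filtered PE-high cells. They summed to 525 CPM in FACS CFU-E and 521 CPM in filtered CS CFUE cells, so ratios of this size are particular to PE-high. The sum in filtered PE-low cells was lower than in these pools as well. For Hbb-bs, 1 cell held 30.1% of the PE-low UMIs and 1 cell held 11.5% of the PE-high UMIs. Of 22 CFU-E stage genes compared, 20 were called lower and 0 higher, with Hemgn at 34.7 and 217 CPM, Cldn13 at 32.6 and 190 CPM and Rgcc at 85.0 and 484 CPM. All 10 heme biosynthesis genes compared were called lower, among them Uros with 17.3 CPM in filtered PE-low cells and 57.1 CPM in filtered PE-high cells. Sptb, which encodes beta spectrin, had 9.96 and 82.2 CPM, Mrap 8.67 and 85.9 CPM and Acp5, an acid phosphatase, 16.2 and 86.0 CPM. Of the growth lists, 0 of 26 G2/M genes and 0 of 19 nucleolus genes compared were called either way, and 3 of 28 S phase genes were called lower (Ccne1, Rrm2 and Cdc6), of which Cdc6 lost its call without the cells at 0 UMIs of Klf1, Gata1 and Epor (1.49-fold lower).

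**Figure D2:**
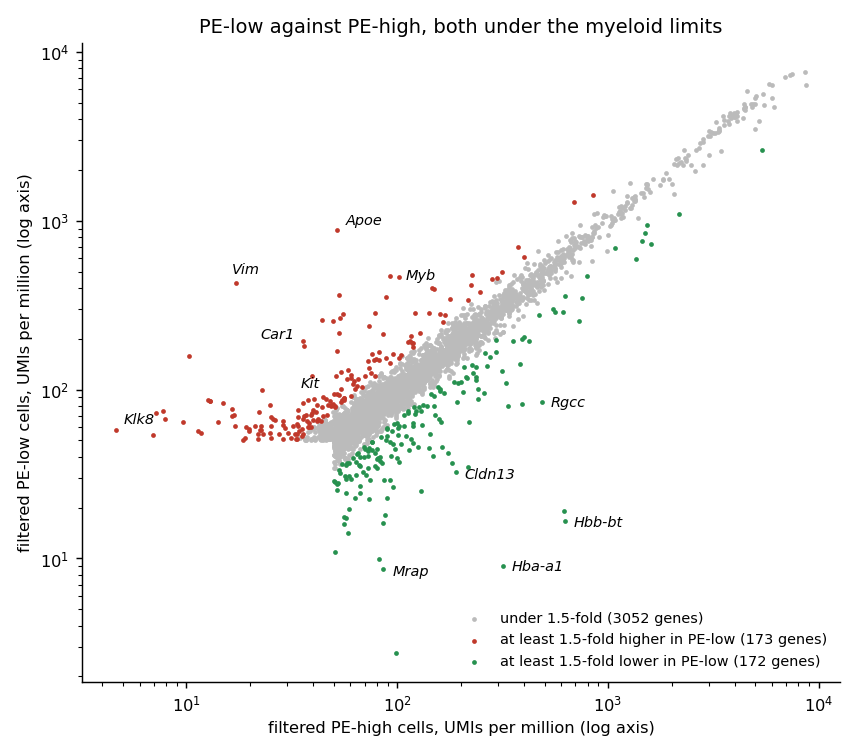
Each of 3397 genes at its level in filtered PE-low cells (y, CPM, log axis) and in filtered PE-high cells (x, same unit, log axis); colours mark the 173 genes called higher and the 172 called lower in PE-low. Vim (428 against 17.2) and Apoe (880 against 51.9) lie far above the diagonal and the globins Hbb-bt and Hba-a1 far below it.

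Against FACS BFU-E under the same limits, the filtered PE-low cells differed in few genes. Of 3260 genes, 2 were called higher (0.0613%) and 8 lower (0.245%), and the median log2 ratio was 0.02. The 2 higher genes were CFU-E stage genes. Rgcc, a cell cycle regulator, had 85.0 CPM in filtered PE-low cells and 40.4 CPM in filtered FACS BFU-E cells (2.11-fold, 1.78 to 2.49), and Cd24a had 82.5 and 52.4 CPM (1.57-fold, 1.35 to 1.84). Most of the 8 lower genes were immediate early genes, which cells switch on within minutes of a stimulus. Jun had 5.35 CPM in filtered PE-low cells and 179 CPM in filtered FACS BFU-E cells (33.5-fold lower, 23.2 to 50.3), Nfkbia 15.3 and 68.2 CPM, Jund 53.9 and 129 CPM, Ier2 38.0 and 85.8 CPM and Junb 33.6 and 64.2 CPM. Pnrc1, Snhg5 and Clk1 made up the rest, with ratios of 2.10, 1.66 and 1.65-fold lower. Of the 6 markers, 5 differed by less than 1.5-fold between the 2 pools: Apoe had 880 CPM in filtered PE-low cells and 825 CPM in filtered FACS BFU-E cells, Car1 181 and 185 CPM, Kit 87.6 and 103 CPM, Ccnd2 190 and 170 CPM and Gata2 38.7 and 43.3 CPM. Emb had 8.49 and 0.580 CPM (46 and 3 UMIs, log2 3.87), or 1.33 and 0.581 CPM (7 and 3 UMIs, log2 1.19) without the cells at 0 UMIs of Klf1, Gata1 and Epor. Without the cells at 0 UMIs of Klf1, Gata1 and Epor the counts were again 2 higher and 8 lower, with 2 and 8 genes shared. Among cells with none of the 3 late genes past its cut, as set out next, 1 gene of 3273 was called higher (0.0306%) and 10 lower (0.306%). The higher gene was Ddah2, with 69.6 CPM in the PE-low cells and 45.7 CPM in the FACS BFU-E cells, and under 1.5-fold without its top cell. Cd24a had 48.0 CPM in these PE-low cells and 43.2 CPM in these FACS BFU-E cells. Both sets were chosen by Cd24a with Tfrc and Rhd, and Cd24a stayed under 50 CPM, so its levels here are a description only.

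Some filtered PE-low cells were already late by Tfrc, Cd24a and Rhd. For each gene the cut was the 25th percentile of the FACS CFU-E cells, which was 203 CPM for Tfrc, 272 CPM for Cd24a and 246 CPM for Rhd. All 3 genes were past their cuts in 3 of 156 filtered PE-low cells (1.92%, 95% exact Clopper-Pearson interval 0.398 to 5.52), against 123 of 275 filtered PE-high cells (44.7%) and 78 of 167 FACS CFU-E cells (46.7%). In filtered FACS BFU-E and CS BFUE cells the counts were 0 of 156 and 0 of 87, which by 3 counts of the total allow shares of up to 1.92% and 3.45%. At least 2 of the 3 genes were past in 11 filtered PE-low cells (7.05%, 3.57 to 12.3), against 4 filtered FACS BFU-E cells (2.56%, 0.703 to 6.43) and 0 filtered CS BFUE cells, and the first 2 intervals overlap. None was past in 123 filtered PE-low cells. With every cell thinned to 20000 UMIs, the cuts were taken again as the 25th percentile of the thinned FACS CFU-E cells, so both depth and cuts changed. Of 148 filtered PE-low cells, 8 (5.41%) were past all 3 of these cuts and 17 (11.5%) past 2 or 3. In filtered FACS BFU-E cells the counts were 1 and 7 of 144.

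Taken singly, Tfrc was past its cut in 28 filtered PE-low cells, Rhd in 10 and Cd24a in 9. The sum of the 3 genes had a median of 186 CPM and a highest cell at 1230 CPM, while 19 cells had 0 UMIs of all 3. In 34 of 156 cells at least 1 gene lay within 20% of its cut, and 3 cells were short of all 3 cuts by 1 gene within that margin. The late cells are a range set by these cuts. CD71 and CD24, which the labels describe as low, are encoded by Tfrc and Cd24a, so the levels of these genes are tied to that description.

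**Figure D3:**
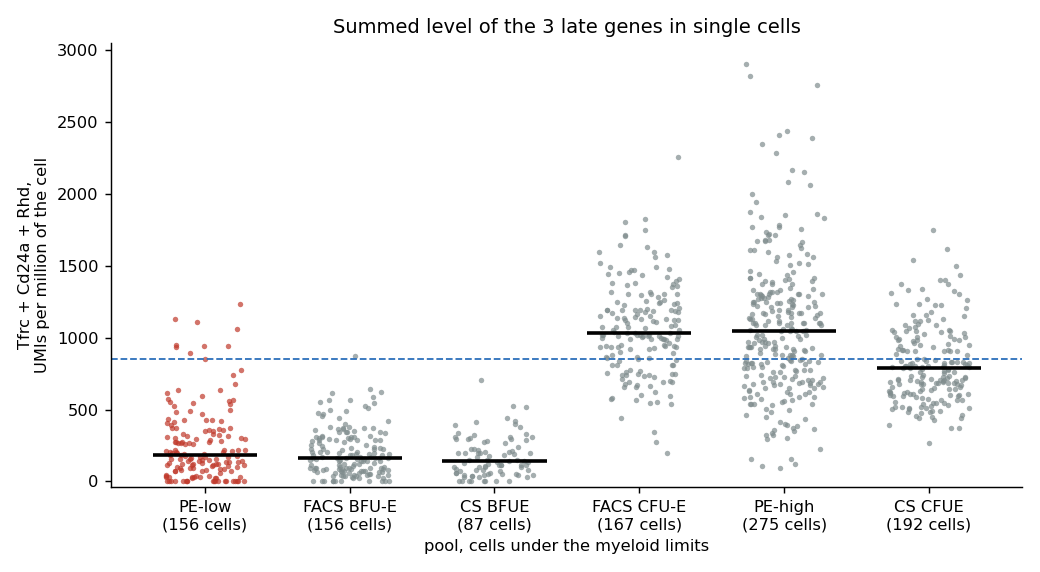
Summed level of Tfrc, Cd24a and Rhd (CPM of the cell) in each cell under the myeloid limits, by pool; black lines are medians and the dashed line is the 25th percentile of FACS CFU-E cells (854). Filtered PE-low cells have a median of 186 and reach 1230, and 9 of them lie on or over the dashed line.

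The 3 cells past all 3 cuts had Tfrc at 305, 378 and 321 CPM, Cd24a at 399, 405 and 281 CPM and Rhd at 422, 324 and 341 CPM. They held 2, 2 and 1 UMIs of Apoe and 0 UMIs each of Vim and Gata2. The 11 cells past 2 or 3 cuts were much alike in this: Apoe lay between 0 and 9 UMIs, Vim between 0 and 1 and Gata2 between 0 and 1, while Klf1 lay between 8 and 35 UMIs. Hba-a1 lay between 0 and 4 UMIs in 10 of them and reached 13 in the cell with the highest summed level. Fold changes from 3 cells rest on little: of 3638 genes, 616 were called higher (16.9%) and 512 lower (14.1%) in the 3 cells than in the 123 cells with none past. With the 11 cells in their place, 259 of 3453 genes were called higher (7.5%) and 301 lower (8.72%).

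To describe the whole range, the filtered PE-low cells were ranked by the sum of the 3 late genes and split into a lower, a middle and an upper group of 52 cells each, with boundaries at 119.6 and 295 CPM. CFU-E stage genes were higher in the upper group (19 of 20 compared) and 6 of 14 early erythroid progenitor genes compared were lower there, with 0 called the other way in either list. Of 3473 genes, 260 were called higher (7.49%) and 244 lower (7.03%) in the upper than in the lower group, or 191 and 286 with median-of-ratios scaling. The upper group was also more deeply read, with a median of 40784 UMIs per cell against 30604.5 in the lower group. Depth and the summed level had a Spearman rho of 0.41 across the 156 cells. The part of depth in these differences was not tested. With all cells thinned to 1 depth and ranked again, the upper and lower groups held 53 and 36 cells. Between these other groups 289 genes were called higher and 282 lower. Lists named for other blood cell types, counted over their genes under 5 CPM in FACS CFU-E cells, reached 5 UMIs in 64 of the 156 cells. This limit also admits early progenitor genes: Gata2, 1 of the 6 markers, made up 210 of the 233 UMIs of the mast cell and basophil list. The megakaryocyte list reached 5 UMIs in 60 filtered PE-low cells (38.5%) and 59 filtered FACS BFU-E cells (37.8%). The 64 cells are thus not named as other types. Of the 64 cells, 36 lay in the lower, 24 in the middle and 4 in the upper group. With such cells left out and groups of 31 cells formed from the rest, 178 genes were called higher and 176 lower. The part of these markers in the differences was not tested further.

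Apoe had 0, 4 and 39 UMIs in the lowest, median and highest cell of the upper group, against 0, 46.5 and 130 UMIs in the lower group. Its level was 1625, 943 and 227 CPM in the lower, middle and upper group (7.17-fold lower in the upper than in the lower group, 6.48 to 7.93). Vim had 0, 1 and 24 UMIs in the lowest, median and highest cell of the upper group, against 0, 25.5 and 93 UMIs in the lower group, and levels of 82.1 and 945 CPM (11.5-fold lower). Without the 5 cells described above, the lower group ran from 7 to 130 UMIs of Apoe and from 5 to 70 UMIs of Vim, and the upper group was unchanged in range. For both genes the ranges of single cells overlapped while the medians lay far apart. Gata2 stood at 8.51 CPM in the upper and 82.2 CPM in the lower group (9.66-fold lower, 5.81 to 17.1), and Car1 at 63.1 and 276 CPM (4.37-fold lower). Kit and Ccnd2 did not follow this order. Kit had 84.7, 109 and 70.6 CPM in the lower, middle and upper group, and Ccnd2 194, 199.9 and 178 CPM, so neither reached a ratio of 1.5 between the end groups.

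Other genes lower in the upper group included Ctla2a with 1.00 and 71.6 CPM (2 and 114 UMIs, 71.5-fold lower, 19.3 to 597), the surface protein gene Cd48 with 9.01 and 81.6 CPM and Klk8 with 12.0 and 109.8 CPM. The focal adhesion gene Zyx had 10.5 CPM in the upper and 84.1 CPM in the lower group, the immunoproteasome subunit Psmb8 12.0 and 93.5 CPM and the interferon-induced membrane protein gene Ifitm3 6.01 and 69.7 CPM. These genes were not limited to the 5 cells described above: in the other 151 filtered PE-low cells Ctla2a had 131 UMIs over 50 cells and Ifitm3 138 UMIs over 55 cells. For levels and calls without the 5 cells, the upper and lower groups were formed again from the other cells, with 50 cells each. Lost calls can thus also come from cells that changed group. Ifitm3 then had 5.72 CPM in the upper and 43.4 CPM in the lower group, which is under the level filter and so no longer a call. Some lower-group calls rested on those 5 cells, 4 of which fell in the lower group and 1, the cell with B cell genes, in the upper group through Cd24a at 663 CPM. Cavin2 had 0 and 69.7 CPM with all cells, where 79.3% of its lower-group UMIs lay in the endothelial-gene cell, and 0 and 5.18 CPM without the 5. Cdkn1c, the cyclin-dependent kinase inhibitor p57, had 6.51 and 50.2 CPM with all cells, and 6.76 and 9.72 CPM without them. Dlk1, an imprinted gene, had 9.51 and 68.4 CPM with all cells, and 9.88 and 21.4 CPM without them. Without the 5 cells, in the groups formed again, 260 genes were called higher and 227 lower, of which 227 and 210 were the same genes as before. Vim, Apoe and Gata2 kept their calls.

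The genes higher in the upper group were led by membrane and stage genes of the CFU-E. Of the 20 CFU-E stage genes compared, 19 were called higher and 0 lower, a list that holds the 3 genes used for the ranking. One of the 19, Epor, which was also used to set the 5 cells apart, lost its call without them (123.8 CPM in the upper and 84.2 CPM in the lower group). Cldn13, a claudin, had 75.1 CPM in the upper and 2.51 CPM in the lower group (29.9-fold, 11.4 to 111). Single cells held 0, 2 and 17 Cldn13 UMIs at the lowest, median and highest in the upper group, against 0, 0 and 1 in the lower group. Nxpe2 had 74.6 and 3.77 CPM, Rgcc 190 and 11.9 CPM (15.95-fold, 10.1 to 26.8), and Rhag, the membrane partner of the Rh protein, 77.1 and 7.53 CPM. Outside the membrane, Sphk1, a sphingosine kinase, had 50.6 CPM in the upper and 5.02 CPM in the lower group, Lmna, the nuclear lamin A/C, 119.7 and 18.8 CPM and the metallothionein Mt2 261 and 45.8 CPM. Klf1 stood at 364 CPM in the upper and 194 CPM in the lower group, and Gata1 at 112 and 86.0 CPM, the second under the 1.5-fold limit. Klf3, a factor downstream of Klf1, had 73.1 and 14.4 CPM. With Klf1 it made up the 2 of 19 erythroid transcription factors called higher, and 6 were called lower, among them Mef2c with 42.1 and 109 CPM, Hhex with 38.1 and 78.5 CPM and Runx1 with 36.5 and 61.5 CPM. Of 7 heme biosynthesis genes compared, 5 were called higher, with Cpox at 485 and 159 CPM. Alas2, the red cell form of the first enzyme of heme synthesis, had 2 UMIs in the upper group and 0 in the lower, so the enzyme's gene was at or under the floor of 3 counts on both sides. None of the 8 globin genes reached the level filter: Hbb-bt had 23.0 CPM in the upper and 10.0 CPM in the lower group.

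Further lists shifted in part. Pyruvate kinase showed an isozyme difference: Pklr, the liver and red cell form, had 74.6 CPM in the upper and 15.7 CPM in the lower group, and Pkm, the form of most other cells, 245 and 484 CPM. Of 8 genes compared of the interferon and immunoproteasome list, 4 were called lower (Psmb8, Ifitm2, B2m and, with the 5 cells only, Ifitm3) and 1 higher, Psmb10, with 286 and 159 CPM. Asns, the asparagine synthetase, led the ATF4 list with 312 CPM in the upper and 89.8 CPM in the lower group, and 4 of its 10 compared genes were called higher, of which Shmt2 lost its call without the 5 cells. The serglycin gene Srgn, a proteoglycan of granules, had 118 CPM in the upper and 382 CPM in the lower group. Among cell cycle genes Ccne1, cyclin E1, had 177 CPM in the upper and 61.5 CPM in the lower group, and it was the 1 gene of 28 S phase genes that was called. Of 26 G2/M genes, 3 were called lower (Kif23, Nusap1 and Cdk1), and Kif23 lost its call without the 5 cells. The iron store Fth1 had 3465 CPM in the upper and 1999 CPM in the lower group. Megakaryocyte list genes summed to 47.1 CPM in the upper and 323 CPM in the lower group, where the second and the third of the 5 cells held 95 and 62 UMIs of them.

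**Figure D4:**
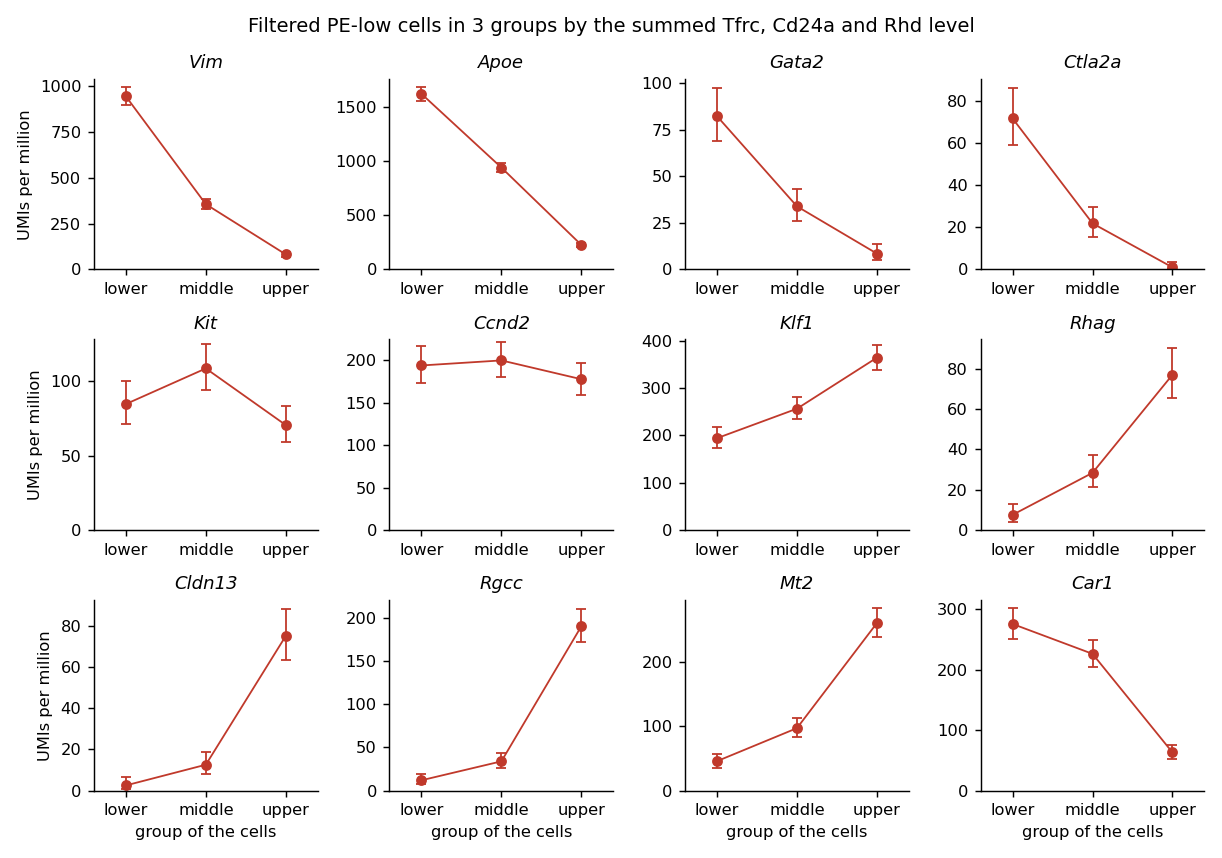
Levels of 12 genes (CPM, linear axes from 0) in the lower, middle and upper group of the 156 filtered PE-low cells by the summed Tfrc, Cd24a and Rhd level, 52 cells in each; bars are 95% exact Poisson intervals. Vim, Apoe, Gata2 and Ctla2a are highest in the lower group, Rhag, Cldn13, Rgcc and Mt2 in the upper group, and Kit and Ccnd2 stay within a ratio of 1.5 between the end groups.

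Cell by cell the same order was seen at equal depth. Across 148 filtered PE-low cells thinned to 20000 UMIs, the Spearman rho with the summed late level was -0.73 for Vim (Pearson r -0.56), -0.69 for Apoe (r -0.56) and -0.68 for Gmfg, and among 4959 genes it was lowest for Sh3bgrl3 at -0.73. The highest values were 0.66 for Fth1 (r 0.75), 0.65 for Blvrb, the biliverdin reductase B, and 0.64 for Hebp1, a heme-binding protein. Kit had -0.04 and Ccnd2 -0.05. Summed over lists, rho was 0.78 for the other 21 CFU-E stage genes, 0.66 for iron handling without Tfrc and 0.50 for heme biosynthesis, against 0.20 for the globins, 0.03 for S phase genes and 0.01 for G2/M genes. In FACS BFU-E cells, read in the same library, rho was -0.49 for Vim, -0.50 for Apoe and 0.41 for Fth1 over 144 cells. In the CITE-seq library's CS BFUE cells the values for these 3 genes were -0.66, -0.39 and 0.46 over 66 cells. These are descriptions across cells that share a library. Among the markers themselves, Apoe and Gata2 went together (rho 0.56), and Kit was near 0 with Gata2 (rho 0.08) and Car1 (rho 0.07).

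**Figure D5:**
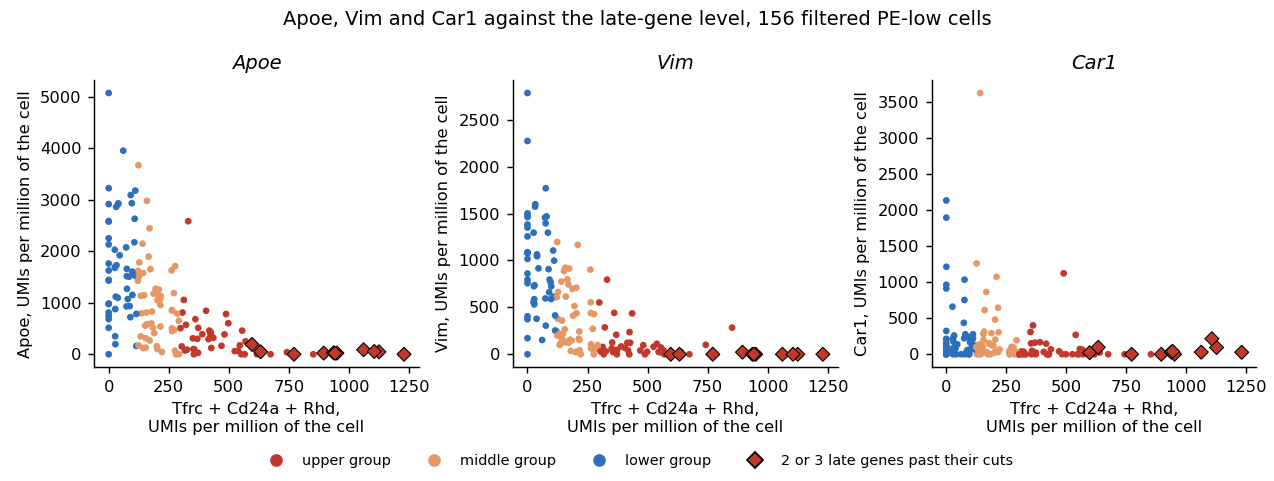
Apoe, Vim and Car1 (CPM of the cell) against the summed Tfrc, Cd24a and Rhd level in each of the 156 filtered PE-low cells; colours mark the 3 groups and diamonds the 11 cells past 2 or 3 cuts. Apoe and Vim thin out toward the right, and the 11 late cells hold 0 to 9 UMIs of Apoe and 0 to 1 of Vim, while Car1 is high in a few cells only.

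Promoters of 2 genes at the ends of the order are shown: Rhd, which is higher in the upper group by construction since it was used for the ranking, and Vim, which was lower there. They are taken from RefSeq on GRCm38.p6, 250 bases before to 50 after the start on the gene's strand (+ for both). Rhd is at chr4:134864286-134864585 and Vim at chr2:13574061-13574360. Capitals mark the motif AGATAA, which is among the sequences bound by GATA factors, searched on both strands (TTATCT on the other). Only this exact string was searched, and other sequences that GATA factors bind, such as TGATAA, were not counted.
Rhd: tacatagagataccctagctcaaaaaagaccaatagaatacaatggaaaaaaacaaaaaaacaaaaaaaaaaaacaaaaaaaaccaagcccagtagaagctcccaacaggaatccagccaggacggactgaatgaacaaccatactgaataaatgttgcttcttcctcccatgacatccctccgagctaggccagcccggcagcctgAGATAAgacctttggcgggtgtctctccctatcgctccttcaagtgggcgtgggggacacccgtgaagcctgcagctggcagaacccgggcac
Vim: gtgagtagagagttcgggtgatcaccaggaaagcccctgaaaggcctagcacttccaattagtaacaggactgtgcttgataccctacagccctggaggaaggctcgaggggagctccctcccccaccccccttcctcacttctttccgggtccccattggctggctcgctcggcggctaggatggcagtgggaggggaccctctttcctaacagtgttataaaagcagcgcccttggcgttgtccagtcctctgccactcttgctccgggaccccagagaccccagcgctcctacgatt
The Rhd window held 1 match, at bases 208 to 213, and the Vim window 0. The window of Rhag, which was higher in the upper group and not used for the ranking, was also searched. It held 0 matches to this exact string, but it does hold TTATCA, which is TGATAA on the other strand. Of all 32851 promoters of this length 11.2% held the motif, and of the 27025 genes they belong to 12.7% had a promoter with it. The counts that follow are of genes. The 10 highest genes of the upper group include the 3 used for the ranking. Of these 10, 8 had a promoter in the table and 2 of them held it (Rhd and Sphk1), and of the 10 lowest, 9 had one and 1 held it (Ctla2a). A match is a string of letters and not a measured site.

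The late PE-low cells were compared with PE-high cells past the same cuts. Past all 3 cuts, 492 of 3532 genes were called higher (13.9%) and 341 lower (9.65%) in the 3 PE-low cells than in 123 PE-high cells, at a depth of 129544 UMIs for the 3 cells. Past 2 or 3 cuts, 101 of 3347 were called higher (3.02%) and 133 lower (3.97%) in 11 PE-low cells than in 199 PE-high cells. The 2 sides were not matched in late genes, since 3 of the 11 PE-low cells and 123 of the 199 PE-high cells were past all 3 cuts. The part of this unlike mix in the differences was not tested. Over the cells past 2 or 3 cuts, Rhd had 337 CPM in the PE-low cells and 416 CPM in the PE-high cells. Tfrc had 274 and 354 CPM and Cd24a 309 and 467 CPM, and of the 3 genes Cd24a was called lower. All 4 globins compared were called lower: Hbb-bs had 30.4 CPM in the late PE-low cells and 869 CPM in the late PE-high cells, Hbb-bt 43.5 and 869 CPM and Hba-a1 49.98 and 440 CPM. Trim10 had 15.2 CPM in the late PE-low cells and 54.1 CPM in the late PE-high cells, and Hemgn 126 and 273 CPM. Of 22 CFU-E stage genes, 5 were called lower, Cd24a among them, and 0 higher. Kit was called higher, with 24 UMIs in the late PE-low cells (52.2 CPM) and 239 in the late PE-high cells (32.1 CPM). Cdk6 (150 and 90.8 CPM), Arhgdib (78.2 and 27.1 CPM) and Cmtm7 (60.8 and 20.5 CPM) were called higher as well. Without the PE-low cell with the most UMIs of the gene, the log2 ratio was 0.42 for Kit and 0.57 for Cdk6, both under the 1.5-fold limit.

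Beyond the order by late genes, some genes varied among the filtered PE-low cells far more than others of like level. Thinned to 20000 UMIs, a typical gene had a variance over mean of 1.11. Tmsb4x, the actin-binding thymosin beta 4, had 20.05, with up to 95 UMIs in a cell and a mean of 9.31, and 10.6 with up to 53 UMIs without the 5 cells. Car1 had 17.3: 66.9% of cells held a UMI, the mean was 3.80 and the highest cell held 74. Apoe had 17.7, Vim 9.84, the linker histone gene Hist1h1b 17.9 and Ube2c, an S and G2/M phase ubiquitin-conjugating enzyme, 7.35. Car1 was patchy in FACS BFU-E cells as well, with a variance over mean of 12.3 and a mean of 3.71. Coro1a had 7.17 and Igfbp4 6.04 with the 5 cells, and 3.61 and 2.73 without them. The sex-linked transcript Xist had 8.10, with a UMI in 46.6% of cells, and it had 10.2 in FACS BFU-E cells. Hspa8 had 12.2 and Gm26917 5.33 in filtered PE-low cells. Mitochondrial transcripts filled 7 of the first 20 places, led by mt-Atp6 at 27.6.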

How the data were processed

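Single-cell expression was deposited as natural log values, ln(1 + UMIs per 10000 UMIs of the cell), by the authors; the tools named in the submitters' processing notes are Scanpy and Cell Ranger 4.0.0, with the build mm10. The step between the lowest values of a cell gave back whole UMIs for 100% of 16419767 values (within 0.02). Pools came from the deposited assignment column, and libraries from barcode endings, the CITE-seq library by elimination. UMIs were summed over cells and divided by their total (CPM). With 1 sample a group there was no test: genes at 50 CPM with a UMI in 10% of cells on 1 side were called at 1.5-fold, and ratios carry a 95% exact conditional binomial interval. A count of 0 was bounded at 3 counts. Named genes were the 10 highest and 10 lowest ratios, up to 4 of each list by size of ratio, the 20 most variable, the markers, the late genes and the 4 limit genes; others were chosen after their values were seen. Alternatives were scaling, filters, limits, fold, thinning to 20000 UMIs and other late cuts. The scripts were tested on simulated data. No doublet caller was run, and the authors' cell filter was not stated in any source used. Members and gene lists were chosen with earlier results of these data known.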

Additional observations from a re-analysis of the deposited data

How the results depend on the processing

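Of the 97 counts recomputed, 58 stayed within 1.5 times the reported count. No called ratio of a named gene changed sign against PE-high, against FACS BFU-E or for the upper over the lower group. Gene ratios of the other comparisons were not recomputed under these settings. The larger of the higher and lower counts changed under some settings, among them 191 and 286 for the upper over the lower group with median-of-ratios scaling and 520 and 590 for the cells past all 3 cuts, against 260 and 244 and 616 and 512 as reported. With a 20 CPM filter the higher and lower counts were 441 and 338 against PE-high, 23 and 23 against FACS BFU-E, 1195 and 1211 for cells past all 3 cuts over cells past none, and 510 and 634 for the upper over the lower group. With no filter they were 4305 and 1705, 1877 and 1874, 7241 and 1590, and 2109 and 3420. At 2-fold they were 78 and 81, 1 and 5, 240 and 250, and 68 and 106. Against FACS BFU-E they were 10 and 16 without the UMI limits; the higher count was 1 with a mean over cells and 6 with thinning. For the late cells, cutting at the CFU-E median left 1 cell and 931 higher genes, a cut on the summed level 9 cells with 251 and 317 genes, and 2 or 3 cuts 11 cells with 259 and 301. Thinning, with the cuts taken again from thinned cells, gave 8 cells. Late PE-low over late PE-high cells past 2 or 3 cuts gave 101 and 133. Values of named genes moved in 1 case against FACS BFU-E, 66 against PE-high and 117 for the upper over the lower group, and stayed in 109, 671 and 735. The late cuts on 2 genes, the 3 groups and the sets without the 5 cells were added after seeing the data. The limits on myeloid UMIs kept 149 cells when stricter and 159 when looser. No paired analysis was possible because each pool is 1 sample with no replicate number. Depth limits the 3-cell comparison, where 3 counts stand for 23.2 CPM.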

Other observations

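In the filtered PE-low cells Gm42418 and Malat1 were among the most variable transcripts, at a variance over mean of 24.8 and 10.7, against 44.6 and 10.8 in FACS BFU-E cells. Fabp5, a fatty acid binding protein, had 6.39 in filtered PE-low cells and 1.99 in FACS BFU-E cells, with up to 84 UMIs in 1 PE-low cell, and 4.25 without the 5 PE-low cells at 0 UMIs of Klf1, Gata1 and Epor. The histone gene H2afy had 5.34 and 1.81, and 2.19 in PE-low cells without those 5. Of the cells that no gate label covers, 2136 cells of the CITE-seq library and 2 of the hashed library were named unknown and were used in no comparison.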
